A study of Homo sapiens with 6 samples.

Results

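Microtubules are built from alpha- and beta-tubulin, and the human genome holds several genes, called isotypes, for each. The 10 isotype genes described here are the alpha genes TUBA1A, TUBA1B, TUBA1C and TUBA4A and the beta genes TUBB, TUBB2A, TUBB2B, TUBB3, TUBB4B and TUBB6. They were taken by gene name from RNA sequencing count tables of 50868 genes. The cells were DU145, a line from a human prostate carcinoma that grows without androgen. The siRCC2 group (n = 3 libraries) was transfected with a small interfering RNA (siRNA) against RCC2 and is labelled as RCC2 knockdown. The siCtrl group (n = 3 libraries) received a control siRNA and is labelled as RCC2 wild type, and both groups are of the same line. The title of the series asks how RCC2 acts on growth and movement of prostate cancer cells, with attention to the Hedgehog pathway and stem-like cells. The sources used here give neither the siRNA sequences nor the time after transfection. The labels also leave unsaid whether replicates were grown as separate cultures, and p-values then reflect no more than the library-to-library spread, which may be technical.

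Alpha- and beta-tubulin join into a dimer, and dimers add to the ends of microtubules, which form the mitotic spindle and the tracks for transport in the cell. Isotypes of a family are nearly the same over most of the protein and differ mainly in the tail at the carboxyl end, where many modifying enzymes act. Cells also adjust tubulin mRNA to the amount of free dimer: in this autoregulation TTC5 binds the first residues of tubulin as it leaves the ribosome, and the mRNA is then broken down by way of SCAPER and the CCR4-NOT deadenylase.

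RCC2 itself, the targeted gene and a relative of RCC1 that binds centromeres, had 980, 1117 and 1045 counts in siRCC2 replicates 1 to 3, against 3998, 3598 and 3702 counts in siCtrl replicates 1 to 3. The log2 fold change of RCC2 was -1.76 ± 0.07 (SE; adjusted p = 2e-05 by edgeR), so each library went with its label. Library totals ran from 17377191 to 19895431 counts, and 16536 genes had enough counts to be tested. Replicates differed beyond counting noise, with a chi-square per degree of freedom of 14.2 to 35 among siRCC2 libraries and of 10.3 to 10.7 among siCtrl libraries. Epithelial markers were present, with all 6 of KRT7, KRT8, KRT18, KRT19, EPCAM and CDH1 tested and a summed level of 3062 to 3667 CPM in siRCC2 and 4764 to 4997 CPM in siCtrl. CPM are counts relative to the library total after TMM scaling. KRT7 was lower in siRCC2 (log2 fold change -1.13 ± 0.10), as was EPCAM (-0.48 ± 0.12), a call lost without siCtrl replicate 1, siCtrl replicate 2 or siRCC2 replicate 2 (adjusted p up to 0.0671). KRT8 (0.66 ± 0.06), KRT18 (0.51 ± 0.08) and CDH1 (0.29 ± 0.08, named after its values were seen) were higher. CDH1 kept its call only without siRCC2 replicate 3 among the libraries left out in turn (adjusted p up to 0.112). The call of CDH1 was also lost with genes of at least 1 read kept. Among luminal prostate markers, KLK2 and HOXB13 were at 0 counts in every library, KLK3 had at most 1 count, and SLC45A3 was lower in siRCC2 (-0.93 ± 0.17). Of 12 leukocyte, endothelial and fibroblast markers 5 were tested, and their whole list summed to 31.8 to 37.6 CPM in siRCC2 and 32.9 to 36.8 CPM in siCtrl.

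The first 4 codons of the coding sequence are shown because autoregulation reads the residues they encode. They are in capitals, followed by the next coding bases, each read 5′ to 3′ on the coding strand from GENCODE release 29 transcripts on GRCh38. In the alpha isotypes they encode methionine, arginine, glutamate and cysteine, and in the beta isotypes methionine, arginine, glutamate and isoleucine.
TUBA1A, TUBA1B and TUBA1C: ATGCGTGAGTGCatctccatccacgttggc
TUBA4A: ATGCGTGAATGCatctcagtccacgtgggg
TUBB: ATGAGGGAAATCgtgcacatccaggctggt
TUBB2A: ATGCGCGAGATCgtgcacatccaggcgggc
TUBB2B: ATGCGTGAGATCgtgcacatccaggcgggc
TUBB3: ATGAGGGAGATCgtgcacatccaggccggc
TUBB4B: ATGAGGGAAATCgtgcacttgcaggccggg
TUBB6: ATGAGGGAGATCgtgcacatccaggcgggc
The TUBA1 genes have the same bases over this whole stretch, and all 10 members encode 1 of these 2 starts. How autoregulation bears on the counts was not tested.

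The ends of the coding sequence, the stop codon included, show where beta isotypes part from each other. Capitals mark bases that did not match TUBB in an alignment of the coding sequences.
TUBB end: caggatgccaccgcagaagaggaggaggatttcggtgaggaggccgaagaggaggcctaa
TUBB2A end: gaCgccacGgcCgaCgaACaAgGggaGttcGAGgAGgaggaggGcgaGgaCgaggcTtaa
TUBB2B end: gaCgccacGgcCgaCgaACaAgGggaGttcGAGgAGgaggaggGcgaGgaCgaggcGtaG
TUBB3 end: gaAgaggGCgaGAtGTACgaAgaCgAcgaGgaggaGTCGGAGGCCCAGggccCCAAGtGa
TUBB3 had 32 such bases in this stretch, TUBB2B 19 and TUBB2A 18. TUBB2A and TUBB2B are alike even here. Over their whole coding sequences they share 98.1% of bases and 99.6% of encoded residues. By the same measure TUBB and TUBB3 share 81.7% of bases and 91.3% of residues. Among alpha isotypes the corresponding stretch is identical in TUBA1A and TUBA1B. Their whole coding sequences share 97.2% of bases and 99.6% of residues. Reads from such stretches fit more than 1 gene, and the estimate behind each count divides them among genes. The share of a gene's 50-base stretches that also occur in other genes is therefore given with each member.

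Knockdown of RCC2 went with about doubled mRNA of the main alpha- and beta-tubulin isotypes. Of the 10 members 7 rose, 1 fell and 2 did not pass the threshold of an adjusted p of 0.05 (edgeR quasi-likelihood test). Over all 16536 genes tested, 20.7% were called higher, 21.1% lower and 41.8% in either direction. The median log2 fold change of the 10 members was 0.95, beside -0.015 over all genes tested. The groups did not overlap in the 7 members that rose, a pattern seen upward in 26.9% of tested genes, nor in the 1 that fell, seen downward in 28.5%. In bulk libraries a change in RNA per cell and a change in the share of cells that make it cannot be told apart.

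**Figure D1:**
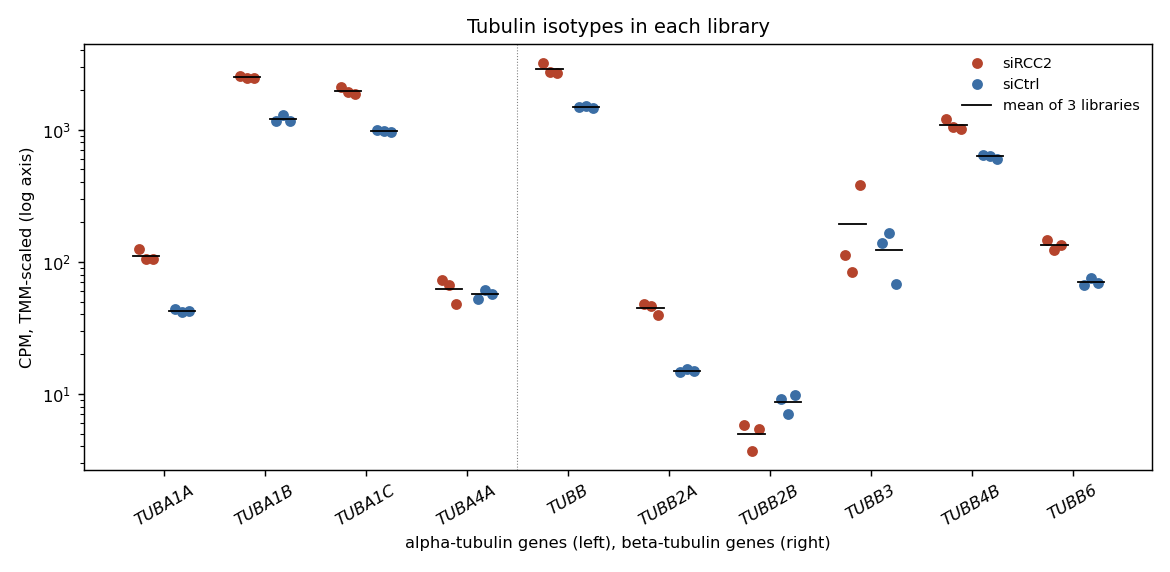
Level of each isotype (CPM, TMM-scaled, log axis) in the 3 siRCC2 libraries (left of each pair) and the 3 siCtrl libraries (right), with a bar at the mean. The siRCC2 points lie above all siCtrl points for TUBA1A, TUBA1B, TUBA1C, TUBB, TUBB2A, TUBB4B and TUBB6 and below them for TUBB2B; those of TUBA4A and TUBB3 overlap, and TUBB3 in siRCC2 replicate 3 reached 380 CPM.

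TUBA1B and TUBA1C carry most alpha-tubulin mRNA in these cells and lie with TUBA1A in 1 cluster on chromosome 12. TUBA1B (ENSG00000123416, GRCh38 chr12:49127782-49131397, minus strand), the widely expressed alpha isotype, had 2529, 2448 and 2478 CPM in siRCC2 replicates 1 to 3, against 1163, 1289 and 1158 CPM in siCtrl replicates 1 to 3. Every siRCC2 library lay far above every siCtrl library, and replicates lay close together. The log2 fold change of TUBA1B was 1.05 ± 0.06 (SE; adjusted p = 7.38e-05), and 62.7% of its stretches occur in other genes, 56.6% in other members. TUBA1C (ENSG00000167553, chr12:49188736-49274603, plus strand), the third gene of the cluster, had 2117, 1943 and 1864 CPM in siRCC2, against 997, 985 and 964 CPM in siCtrl. Its groups were as far apart, and the log2 fold change was 1.01 ± 0.07 (adjusted p = 8.85e-05). TUBA1C shared fewer stretches, 25.1%.

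TUBA1A (ENSG00000167552, chr12:49184796-49189324, minus strand), an alpha isotype known for its part in the developing brain, was the alpha gene with the largest fold change. It had 124, 105 and 105 CPM in siRCC2, against 43.8, 41.6 and 42.7 CPM in siCtrl. The siRCC2 libraries were high in all 3 replicates and the siCtrl libraries hardly varied. The mean was 111 ± 10.9 CPM in siRCC2 and 42.7 ± 1.11 CPM in siCtrl (SD, n = 3 each), a log2 fold change of 1.38 ± 0.09 (adjusted p = 8.85e-05), or 2.61-fold. TUBA1A shares 41.1% of its stretches with other genes, and its span overlaps that of TUBA1C by 589 bases on the other strand, so reads there can count for either gene if strand was not used. Summed, the TUBA1 genes had 4571 ± 174 CPM in siRCC2 and 2228 ± 78.4 CPM in siCtrl, a log2 fold change of 1.04 ± 0.06 (adjusted p = 6.01e-05) that does not depend on how reads are divided among them.

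TUBA4A (ENSG00000127824, chr2:219249711-219278170, minus strand), an alpha isotype encoded away from the cluster and known to be high in brain and muscle, did not pass the threshold. It had 73.0, 67.1 and 48.1 CPM in siRCC2, against 51.9, 61.2 and 56.8 CPM in siCtrl. The siRCC2 libraries lay on both sides of the siCtrl libraries, with replicate 3 the lowest of all 6. The log2 fold change was 0.15 ± 0.16 (adjusted p = 0.487). Without siRCC2 replicate 3 it was 0.31 ± 0.10 and passed (adjusted p = 0.049). Only 5.3% of TUBA4A stretches occur in other genes.

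TUBB (ENSG00000196230, chr6:30720201-30725426, plus strand), the class I beta isotype of most dividing cells, had the most counts of the 10 members. It had 3178, 2756 and 2682.5 CPM in siRCC2, against 1497, 1506 and 1456 CPM in siCtrl. All siRCC2 libraries were high, replicate 1 most of all, and the groups were well apart. The log2 fold change of TUBB was 0.95 ± 0.08 (adjusted p = 0.000187), and 18.2% of its stretches occur elsewhere, 16.1% in the pseudogene TUBBP1. The TUBBP1 row had 475, 9 and 17 counts in siRCC2 and 300, 293 and 16 counts in siCtrl, so it was high in some libraries of both groups. Adding it to TUBB, a step chosen after seeing the data, left a log2 fold change of 0.94 ± 0.08 (adjusted p = 0.000222).

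TUBB4B (ENSG00000188229, chr9:137241213-137243707, plus strand), the class IVb beta isotype, is widely expressed and abundant in ciliated cells. It had 1202, 1051 and 1009.5 CPM in siRCC2, against 643, 636 and 603 CPM in siCtrl. The groups did not overlap, and the log2 fold change of 0.79 ± 0.08 (adjusted p = 0.000402) was the smallest of the 7 that rose. TUBB6 (ENSG00000176014, chr18:12307669-12344320, plus strand), the class V beta isotype and the one least like TUBB in residues (90.4% the same), had 147, 123 and 135 CPM in siRCC2, against 66.3, 75.1 and 68.7 CPM in siCtrl. Its log2 fold change was 0.95 ± 0.09 (adjusted p = 0.000354). Just 1.0% of TUBB6 stretches and 9.9% of TUBB4B stretches occur in other genes.

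The class II beta genes TUBB2A and TUBB2B are neighbours on chromosome 6 and both known as abundant in neurons. Their counts moved in opposite directions. TUBB2A (ENSG00000137267, chr6:3153669-3157526, minus strand) had 47.9, 46.1 and 39.3 CPM in siRCC2, against 14.7, 15.4 and 14.8 CPM in siCtrl. All siRCC2 libraries were at least 2 times the highest siCtrl library, and the log2 fold change of 1.57 ± 0.11 (adjusted p = 9.48e-05), or 2.97-fold, was the largest of the members. TUBB2B (ENSG00000137285, chr6:3224261-3231730, minus strand) had 97, 72 and 103 counts in siRCC2, against 184, 131 and 191 counts in siCtrl. In CPM these were 5.86, 3.71 and 5.40 in siRCC2 and 9.13, 7.06 and 9.84 in siCtrl, with no overlap, and the log2 fold change was -0.80 ± 0.21 (adjusted p = 0.0215).

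The fall of TUBB2B rests on few reads. It did not pass without siCtrl replicate 1 (adjusted p = 0.0681), siCtrl replicate 3 (0.0751) or siRCC2 replicate 2 (0.063). The span of TUBB2B overlaps that of PSMG4 by 328 bases on the other strand, so reads there can count for either gene if strand was not used. PSMG4 had 592, 727 and 625 counts in siRCC2, against 564, 506 and 469 counts in siCtrl. The TUBB2 genes share stretches with each other, 60.3% of those of TUBB2A and 47.3% of those of TUBB2B. TUBB2A had 8.18, 12.4 and 7.27 times the counts of TUBB2B in siRCC2, against 1.61, 2.18 and 1.50 times in siCtrl. Their sum was 49.4 ± 4.58 CPM in siRCC2 and 23.6 ± 1.12 CPM in siCtrl, a log2 fold change of 1.06 ± 0.10 (adjusted p = 0.000322). How the division of shared reads bears on the opposite directions was not tested.

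The promoters of the TUBB2 genes, the members with the most similar coding sequences, are shown for comparison, from 250 bases before to 50 after the start given by RefSeq on GRCh38.p14. Capitals mark matches on either strand to the CCAAT box (CCAAT), the GC box (GGGCGG) and the TATA box (TATAAA), and to the CHR element (TTTGAA), which had none here.
TUBB2A promoter, chr6:3157495-3157794, minus strand: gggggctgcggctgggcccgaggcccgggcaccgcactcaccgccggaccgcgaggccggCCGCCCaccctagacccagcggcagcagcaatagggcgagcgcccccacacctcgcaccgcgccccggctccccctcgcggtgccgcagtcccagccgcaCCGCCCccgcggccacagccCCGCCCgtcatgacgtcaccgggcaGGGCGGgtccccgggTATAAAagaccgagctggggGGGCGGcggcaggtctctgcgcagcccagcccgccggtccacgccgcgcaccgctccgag
TUBB2B promoter, chr6:3227604-3227903, minus strand: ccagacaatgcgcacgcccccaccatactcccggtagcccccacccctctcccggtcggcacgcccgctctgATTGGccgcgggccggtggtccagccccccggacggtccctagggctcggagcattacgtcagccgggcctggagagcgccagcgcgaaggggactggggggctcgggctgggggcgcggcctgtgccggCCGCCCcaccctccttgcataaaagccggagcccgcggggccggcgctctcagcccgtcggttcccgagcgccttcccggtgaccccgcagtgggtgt
The TUBB2A window holds 5 GC boxes and 1 TATA box, and that of TUBB2B 1 GC box and 1 CCAAT box. All 10 members matched a RefSeq promoter. A CCAAT box was found in 5 of the 10, beside 35.7% of 27305 promoters of the same length, and a GC box also in 5 of the 10, beside 44.6%. The TATA box was found in 1 (12% of all) and the CHR element in 2 (15.4%). These matches describe letters and not bound sites.

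TUBB3 (ENSG00000258947, chr16:89921392-89938761, plus strand), the class III beta isotype used as a marker of neurons and often seen in carcinoma cells, varied more than any other member. It had 113, 83.3 and 380 CPM in siRCC2, against 138, 166 and 68.2 CPM in siCtrl. Replicate 3 was the highest of the siRCC2 libraries and also the lowest of the siCtrl libraries, and the other siRCC2 libraries lay within the siCtrl range. The mean was 192 ± 164 CPM in siRCC2 and 124 ± 50.1 CPM in siCtrl, and the log2 fold change of 0.64 ± 0.59 did not pass (adjusted p = 0.423). Without siRCC2 replicate 3 its direction turned, with -0.33 ± 0.36 (adjusted p = 0.497).

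Of TUBB3 stretches 89.4% occur in AC092143.1, the readthrough gene that joins MC1R and TUBB3 on the same strand. That row had 571, 441 and 340 counts in siRCC2, against 146, 215 and 344 counts in siCtrl, so siRCC2 replicate 3 and siCtrl replicate 3 were nearly equal in it. Added to TUBB3, a step chosen after seeing the data, it gave 148, 106 and 398 CPM in siRCC2, against 145, 177 and 85.9 CPM in siCtrl, and a log2 fold change of 0.68 ± 0.50 (adjusted p = 0.315). The spread of TUBB3 was thus present in the summed rows too.

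Neuronal markers were low beside TUBB3. Of 14, 6 were tested, 5 were at 0 counts in every library, among them DCX, STMN2 and ELAVL4, and the list summed to 26.0 to 36.2 CPM in siRCC2 and 35 to 37.1 CPM in siCtrl. SYP, a synaptic vesicle protein, was lower (-1.71 ± 0.16), as was NEFL, a neurofilament subunit (-1.72 ± 0.19). The neurofilament partners INA (0.78 ± 0.20) and NEFM (0.70 ± 0.23) were higher, with calls lost without 3 and 5 of the 6 libraries in turn (adjusted p up to 0.0651 and 0.125).

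Sums by family were taken over the members only, so the alpha gene TUBA8 and the beta gene TUBB4A are not in them. The 4 alpha isotypes summed to 4634 ± 184 CPM in siRCC2 and 2285 ± 81.7 CPM in siCtrl. That was a log2 fold change of 1.02 ± 0.06 (adjusted p = 6.75e-05). The 6 beta isotypes summed to 4336 ± 324 CPM in siRCC2 and 2331 ± 97.4 CPM in siCtrl, with 0.90 ± 0.07 (adjusted p = 0.000198). The sum was higher in every siRCC2 library for both families, and the 10 genes together held 0.908%, 0.842% and 0.873% of all counts in siRCC2 libraries, against 0.470%, 0.487% and 0.459% in siCtrl libraries. With 59 tubulin pseudogene rows added to their families the log2 fold changes were 1.02 (alpha) and 0.89 (beta). Of those rows the largest were TUBAP2, with 16.3 ± 1.19 CPM in siRCC2 and 8.47 ± 0.73 CPM in siCtrl, TUBBP1, and TUBBP5, with 6.98 ± 1.21 CPM in siRCC2 and 11.7 ± 2.23 CPM in siCtrl.

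Among all tested genes such fold changes were uncommon but not rare. A log2 fold change above that of TUBB2A was found in 1.58% of tested genes and above that of TUBA1A in 2.28%. For TUBA1B, TUBA1C, TUBB and TUBB6 the share was between 4.82% and 6.39%, and for TUBB4B 9.01%. The middle 90% of tested genes ran from -1.23 to 1.03.

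**Figure D2:**
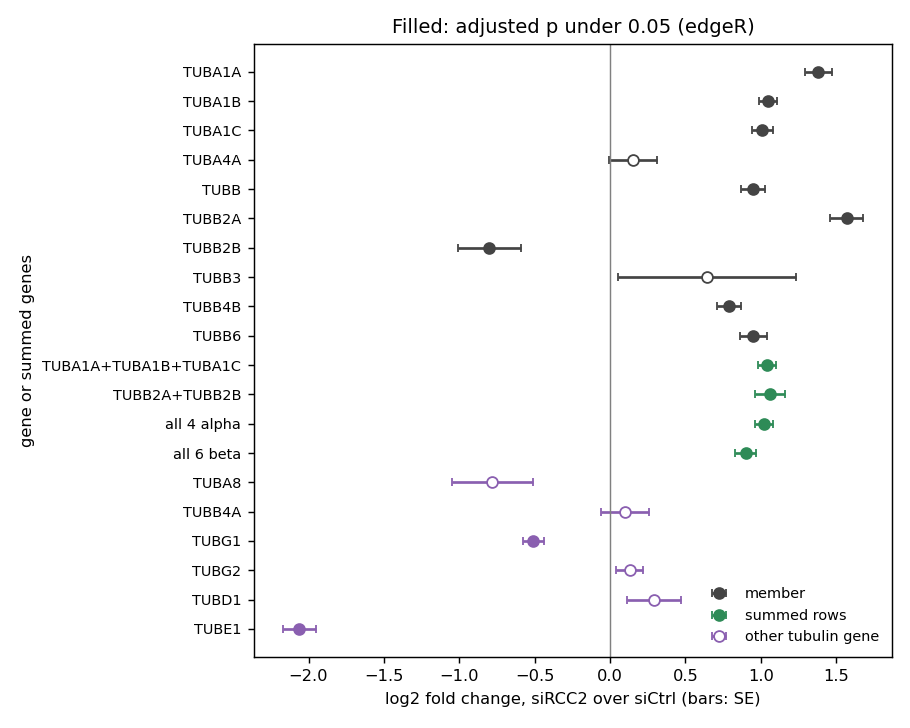
Log2 fold change of siRCC2 over siCtrl with its SE (bars) for the 10 isotypes, for summed rows and for the 6 other tubulin genes tested; filled points have an adjusted p under 0.05 by edgeR. The sums sit between 0.90 and 1.06, TUBB2A is highest at 1.57, TUBB3 has the widest bar, and TUBE1 is lowest at -2.06.

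Levels of different genes were compared per kilobase (kb) of the gene's longest transcript. In siRCC2 libraries the order was TUBB (989 ± 92.1 CPM per kb), TUBA1B (777 ± 12.7), TUBA1C (658 ± 43.2), TUBB4B (534 ± 49.7), TUBB3 (97.2 ± 82.7), TUBB6 (62.4 ± 5.54), TUBA1A (58.2 ± 5.71), TUBB2A (27.9 ± 2.87), TUBA4A (25.1 ± 5.21) and TUBB2B (2.47 ± 0.56). In siCtrl libraries it was TUBB (512 ± 9.24 CPM per kb), TUBA1B (376 ± 23.2), TUBA1C (327 ± 5.51), TUBB4B (308 ± 10.3), TUBB3 (62.6 ± 25.3), TUBB6 (32.4 ± 2.08), TUBA4A (22.7 ± 1.86), TUBA1A (22.3 ± 0.58), TUBB2A (9.38 ± 0.22) and TUBB2B (4.30 ± 0.72). Neighbours whose libraries overlapped were TUBB3, TUBB6 and TUBA1A, and TUBB2A and TUBA4A, in siRCC2, and TUBB3 and TUBB6, and TUBA4A and TUBA1A, in siCtrl. The order depends on the transcript used. For TUBA1B, with its principal coding transcript of 1627 bases in place of the longest of 3198 it came first, with 1527 ± 25.0 against 1076 ± 100.2 CPM per kb for TUBB in siRCC2 and 740 ± 45.6 against 557 ± 10.05 in siCtrl. By principal transcripts TUBB4B also came before TUBA1C, with 664 ± 61.8 against 658 ± 43.2 CPM per kb in siRCC2, where their libraries overlapped, and 383 ± 12.8 against 327 ± 5.51 in siCtrl, where they did not.

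Shares are percentages of the summed members of the same family, without other genes such as TUBA8 and TUBB4A. Shares of 5 isotypes did not overlap between the groups, those of TUBA1A, TUBA4A, TUBB2A, TUBB2B and TUBB4B. Such a pattern is common here: in levels, the groups did not overlap upward in 26.9% and downward in 28.5% of all tested genes. Shares were not computed for other gene families, so the count of 5 is given as a description. TUBA1B and TUBA1C made up 51.2% ± 1.49 and 43.3% ± 1.06 of alpha-tubulin per kb in siRCC2, against 50.2% ± 1.40 and 43.7% ± 1.38 in siCtrl, and the groups overlapped for both. TUBA1A held 4.07%, 3.66% and 3.74% in siRCC2, against 3.09%, 2.79% and 3.06% in siCtrl. TUBA4A held 1.84%, 1.80% and 1.31% in siRCC2, against 2.81%, 3.15% and 3.12% in siCtrl. By these counts TUBA1A took a larger and TUBA4A a smaller part of the alpha pool in every siRCC2 library. TUBA1A shares 40.9% of its stretches with other members, and how the division of shared reads bears on its part was not tested. Exact two-sided permutation gave p = 0.1 for each share whose groups did not overlap, the smallest value that 3 against 3 libraries allow, so none could pass 0.05.

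In the beta family TUBB held 57.7% ± 2.98 in siRCC2 and 55.2% ± 1.69 in siCtrl, with overlap. TUBB2A held 1.63%, 1.81% and 1.45% in siRCC2, against 0.977%, 1.00% and 1.06% in siCtrl, and was higher in every siRCC2 library. TUBB2B held 0.158%, 0.115% and 0.157% in siRCC2, against 0.478%, 0.363% and 0.555% in siCtrl, and was lower in each. TUBB4B held 32.0%, 32.4% and 29.1% in siRCC2, against 33.4%, 32.5% and 33.8% in siCtrl, lower in each. Its nearest libraries were almost level, with 32.377% in siRCC2 replicate 2 and 32.455% in siCtrl replicate 2. TUBB3 ran from 2.64% to 11.3% in siRCC2 and from 3.93% to 8.69% in siCtrl. Shares in a family add up to the whole, so a high TUBB3 in 1 library lowers the others there. The ratio of alpha to beta per kb of the longest transcript was 0.863, 0.937 and 0.864 in siRCC2, against 0.782, 0.808 and 0.829 in siCtrl, higher in each siRCC2 library (exact permutation p = 0.1). By principal transcripts it was 1.13, 1.24 and 1.15 in siRCC2, against 1.02, 1.07 and 1.08 in siCtrl, again higher in each siRCC2 library. Which family is in excess therefore depends on the transcript length used.

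**Figure D3:**
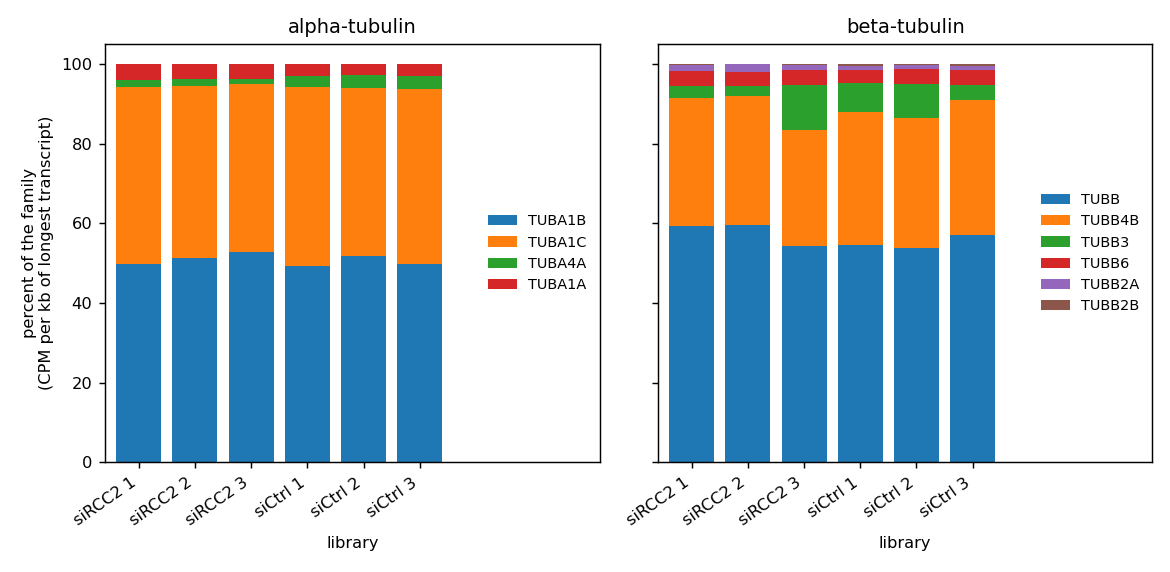
Percent of the summed alpha members (left panel) and of the summed beta members (right panel) held by each isotype, in each siRCC2 library and each siCtrl library. Levels are CPM per kb of the longest transcript. TUBA1B and TUBA1C fill most of the alpha bars and TUBB and TUBB4B most of the beta bars in every library, and TUBB3 takes 11.3% in siRCC2 replicate 3.

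Of the 12 other tubulin genes 6 were tested, and 0 were called higher and 2 lower, or 33.3% in either direction. Over all tested genes 20.7% were called higher, 21.1% lower and 41.8% in either direction. No library held more than 16 counts of any of the 6 not tested, and TUBA3C, TUBA3D and TUBA3E had none. TUBG1, the main gamma-tubulin, from which microtubules are nucleated, had 164, 154 and 143 CPM in siRCC2, against 216, 228 and 212 CPM in siCtrl. All siRCC2 libraries were below all siCtrl libraries, with a log2 fold change of -0.51 ± 0.07 (adjusted p = 0.00175). TUBE1, the epsilon-tubulin needed for mature centrioles, had 4.72, 5.26 and 4.61 CPM in siRCC2, against 21.1, 19.8 and 19.8 CPM in siCtrl. It fell in all siRCC2 libraries to 0.24 of that level, with a log2 fold change of -2.06 ± 0.11 (adjusted p = 5.73e-05). The alpha gene TUBA8 (-0.78 ± 0.27, adjusted p = 0.0538), the beta gene TUBB4A (0.10 ± 0.16), the second gamma gene TUBG2 (0.13 ± 0.09) and the delta-tubulin gene TUBD1 (0.29 ± 0.18) did not pass. TUBA8 did pass without siRCC2 replicate 1, with total counts as the scaling and by limma-voom (adjusted p down to 0.00753), and TUBB4A turned to -0.08 without siRCC2 replicate 1.

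New tubulin is folded by prefoldin and the chaperonin CCT. The share of genes called in either direction was 42.9% in this list and 42.9% among tubulin cofactors. It was 50% among autoregulation genes and 38.9% among modifying enzymes, beside 41.8% of all tested genes. By direction, 20.7% of all tested genes were called higher and 21.1% lower. Of the 14 prefoldin and CCT genes 5 rose and 1 fell, with a median log2 fold change of 0.10. The CCT subunit CCT5 had 759, 790 and 705 CPM in siRCC2, against 506, 453 and 475 CPM in siCtrl (0.65 ± 0.07, adjusted p = 0.000563). The subunit CCT2 (0.34 ± 0.06) and the prefoldin subunit VBP1 (0.49 ± 0.11) rose, as did CCT3 (0.30 ± 0.09) and CCT6A (0.28 ± 0.07), both named after their values were seen. The call of CCT3 was lost without each library but siRCC2 replicate 3 (adjusted p up to 0.125) and that of CCT6A without siCtrl replicate 2 (0.0571). CCT8, a subunit of the same ring, went the other way, with 128, 133 and 151 CPM in siRCC2, against 207, 200 and 223 CPM in siCtrl (-0.61 ± 0.08, adjusted p = 0.00141).

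Tubulin cofactors take the folded chains and join them into the dimer. Of 7, 1 rose and 2 fell, with a median of -0.11. TBCC, which completes the release of the dimer, had 48.9 ± 3.23 CPM in siRCC2 and 30.2 ± 0.93 CPM in siCtrl (0.70 ± 0.09, adjusted p = 0.000937). TBCA, which holds beta-tubulin, fell (-0.41 ± 0.09, adjusted p = 0.00994), as did TBCE, which holds alpha-tubulin (-0.26 ± 0.08, adjusted p = 0.0391). TBCE kept its call only without siRCC2 replicate 1 among the libraries left out in turn (adjusted p up to 0.136). The call of TBCE was also lost with DESeq2 size factors, by DESeq2, with genes of at least 1 read kept, and in the blocked fit. TBCD, which takes up beta-tubulin after TBCA, had -0.20 ± 0.08 and did not pass (adjusted p = 0.0705), except without siRCC2 replicate 1 and with total counts as the scaling (adjusted p down to 0.0127).

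Among 12 genes of tubulin mRNA autoregulation, TTC5, SCAPER and CCR4-NOT subunits, 1 rose, 5 fell and 6 did not pass, with a median of -0.31. TTC5, the factor that reads the first residues of tubulin, had 25.5, 26.3 and 23.3 CPM in siRCC2, against 35.2, 35.8 and 32.0 CPM in siCtrl. All siRCC2 libraries were lower, with a log2 fold change of -0.46 ± 0.10 (adjusted p = 0.00843; TTC5 was named after its values were seen). Of the deadenylase subunits, CNOT6L had 16.3 ± 3.04 CPM in siRCC2 and 30.1 ± 1.03 CPM in siCtrl (-0.89 ± 0.15), while its close relative CNOT6 had 92.5 ± 9.74 CPM in siRCC2 and 66.0 ± 0.83 CPM in siCtrl (0.49 ± 0.09). CNOT10 (-0.55 ± 0.10) and the subunit CNOT3 (-0.30 ± 0.06) fell, as did the deadenylase CNOT7 (-0.33 ± 0.11, adjusted p = 0.0485; named after its values were seen). The call of CNOT3 was lost without siRCC2 replicate 2 (adjusted p = 0.0672), and without that library 3 genes of the list fell in place of 5. CNOT7 lost its call without either of siCtrl replicates 1 and 3 or siRCC2 replicates 1 and 2, with DESeq2 size factors, DESeq2 or limma-voom, and in the blocked fit (adjusted p up to 0.152).

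Of 18 tested enzymes that modify tubulin 1 rose and 6 fell, with a median of -0.13. TTL, which puts tyrosine back on the alpha tail, had 37.5, 35.5 and 39.8 CPM in siRCC2, against 73.9, 74.0 and 71.3 CPM in siCtrl. Its groups were far apart, with a log2 fold change of -0.96 ± 0.08 (adjusted p = 0.000185). VASH1, which removes that tyrosine, also fell (15.0 ± 2.72 CPM in siRCC2 and 33.6 ± 1.17 CPM in siCtrl, -1.17 ± 0.14), as did the tubulin deacetylase HDAC6 (-0.67 ± 0.07) and TTLL7, which adds glutamate to beta-tubulin (-1.56 ± 0.22). AGBL3, a carboxypeptidase of the tail, was the 1 that rose (0.96 ± 0.27, adjusted p = 0.0262; named after its values were seen). AGBL3 was low, with 2.26 ± 0.64 CPM in siRCC2 and 1.16 ± 0.18 CPM in siCtrl, and did not pass without siCtrl replicate 1, siCtrl replicate 3 or siRCC2 replicate 2 (adjusted p up to 0.0903).

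Nucleation and microtubule-binding genes were called about as often as all tested genes, 42.1% and 40.6% of them beside 41.8%. Of 19 genes of the gamma-tubulin ring complex and of augmin, which acts in microtubule branching in the spindle, 1 rose and 7 fell. Their median was -0.13. By direction, 20.7% of all tested genes were called higher and 21.1% lower. Besides TUBG1, the ring subunit TUBGCP3 (-0.37 ± 0.07) and the augmin subunits HAUS5 (-0.43 ± 0.08) and HAUS4 (-0.76 ± 0.17) fell, HAUS4 with a call lost without siRCC2 replicate 2 (adjusted p = 0.0558). The ring subunit TUBGCP5 rose (0.37 ± 0.12, adjusted p = 0.0415; named after its values were seen), and its call was kept only without siCtrl replicate 3 among the libraries left out in turn (adjusted p up to 0.134). Of 32 microtubule-binding, plus-end and severing proteins 6 rose and 7 fell, with a median of 0.03. MAPRE1, the plus-end protein EB1, had 214, 201 and 194 CPM in siRCC2, against 109, 99.7 and 102 CPM in siCtrl (0.97 ± 0.07, adjusted p = 0.000123). The microtubule polymerase CKAP5 (-0.64 ± 0.08), the plus-end protein CLIP2 (-0.85 ± 0.10) and MAP1A, known from neurons (-1.48 ± 0.16), fell.

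**Figure D4:**
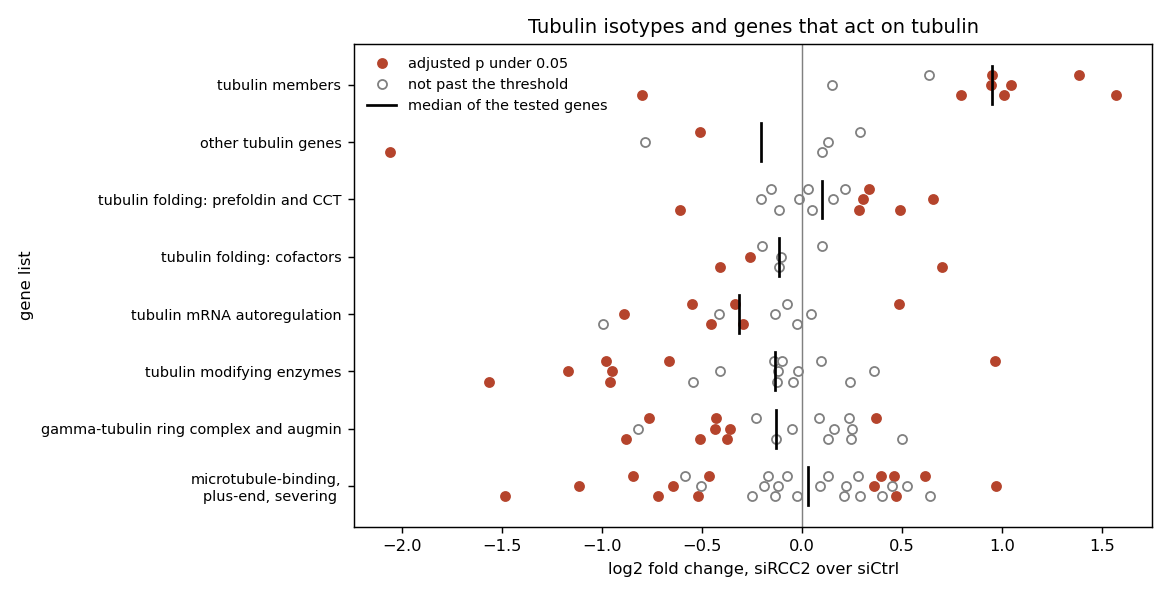
Log2 fold change of siRCC2 over siCtrl for each tested gene of the isotypes and of 7 lists of related genes (filled, adjusted p under 0.05 by edgeR; open, not past the threshold), with a line at the list's median. The median of the isotypes is 0.95 and the medians of the other lists lie between -0.31 and 0.10.

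The genes with the profile most like a member were sought by Pearson's r of log2 CPM over the 6 libraries, among 10190 genes with a mean of at least 10 CPM, for the 3 members with the highest level per kb. For TUBB they were MIR4435-2HG, EIF3F and UNC45A, for TUBA1B AC012313.1, EPHB2 and SIN3B, and for TUBA1C NACC1, PFKFB4 and FASN, with r from 0.9987 to 0.9999. The 6 points are the same libraries for every gene and fall into 2 groups of 3, so r is given as a description.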

How the data were processed

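Total RNA of 6 DU145 libraries was sequenced after preparation with an MGI kit, per the labels' protocols. Bowtie2, RSEM and DESeq2 were used on GRCh38, per the submitters' processing notes; the sources used here give no versions and no strand setting. The authors deposited 1 table of whole-number counts per library, possibly RSEM estimates rounded beforehand. RSEM divides reads among similar genes, which can shift counts between near-identical isotypes.

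Groups and replicate numbers came from sample titles. Genes kept by filterByExpr entered the test of edgeR 4.0.16 in R 4.3.3 (TMM scaling, quasi-likelihood F-test without covariates, Benjamini-Hochberg adjustment over all 16536 genes tested, threshold 0.05). All adjusted p-values are from this test unless another is named. SE values were obtained by dividing log2 fold changes by the root of F. Sums were fitted in the same way with the summed row in place of its parts. CPM are TMM-scaled, with SD over 3 libraries. Totals were 17377191 to 19895431 counts.

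Coding sequences, lengths and strands came from GENCODE release 29, which holds 50111 of the 50868 gene identifiers, 94.8% at identical coordinates. Gene coordinates are those of the deposited files. Promoters came from RefSeq (GRCh38.p14).

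The members and lists were chosen with earlier results of these data known. Named were the members, RCC2, all other tested tubulin genes, the 4 genes with the smallest p in each other list, genes overlapping a member where they bear on it, the 3 pseudogenes with most counts, and the 3 genes most like each of 3 members. Some of the marker genes are not reported here. Alternatives were 3 other scalings, DESeq2 1.42.0 and limma-voom (limma 3.58.1), 2 other filters, the replicate number as a block, each library left out, a threshold of 0.01, added pseudogene or readthrough rows and 3 other scalings of shares. The test was also run on simulated counts with the same dispersion for every gene and few changed genes. That setting is simpler than these data, so the run checked the code only. Tables, alignments and figures used Python 3.11.15 with Biopython 1.88, pandas 2.3.3, numpy 2.4.6 and matplotlib 3.10.9.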

Additional observations from a re-analysis of the deposited data

How the results depend on the processing

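The 7 members that rose passed under each scaling, tool, filter, the replicate block and each left-out library, with adjusted p up to 0.00448. The summed alpha log2 fold change ranged from 0.95 to 1.05 and the summed beta one from 0.82 to 0.96. Between 7 and 8 members were called higher and between 0 and 1 lower with a library left out: TUBB2B was lost without siCtrl replicate 1, siCtrl replicate 3 or siRCC2 replicate 2, and TUBA4A was gained without siRCC2 replicate 3. At a threshold of 0.01, 0 members were called lower, 4117 genes were called in place of 6911, and 37 genes of the related and marker lists in place of 57 (43 to 65 with a library left out). With a library left out TUBB3 ranged from -0.33 (without siRCC2 replicate 3) to 0.99, and TUBB4A from -0.077 (without siRCC2 replicate 1) to 0.24; the causes were not tested. With a library left out, 5112 to 7565 genes were called, the most without siRCC2 replicate 1.

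Deviations of same-numbered libraries correlated at 0.117, -0.054 and 0.194, and those of differently numbered libraries at -0.218 to 0.103. Whether the replicate numbers pair the libraries cannot be decided from 3 libraries per group. With the replicate number as a block 6295 genes were called, and no call of a member changed. Scalings moved the median of all genes by -0.068 (log2) at most, with total counts alone. The number of isotype shares without overlap was 5 under every length scaling and 5 to 7 with a library left out, while the share differences of TUBA1A and TUBB2A were 0.529 and 0.384 percentage points with shares of counts, against 0.843 and 0.619 per longest transcript. Counts limit TUBB2B, at 72 to 191 per library, most.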
